A study of Mus musculus with 4 samples.

Results

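The genes described here are 31 genes used as markers of glutamatergic neurons of the cerebral cortex, chosen by symbol from the 32531 gene rows of each library. The libraries came from the dorsal striatum and the nucleus accumbens of mice older than 20 months of the line Drd1-TRAP CP73 (Drd1-EGFP/Rpl10a), in which the promoter of the dopamine receptor gene Drd1 drives EGFP fused to the ribosomal protein Rpl10a. Both regions carried this transgene, and all 4 libraries were input RNA of the whole dissected tissue, with 2 libraries per region. The labels do not say how many animals stood behind a library, so every p-value rests on the spread between libraries, part or all of which may be technical. Questions put to the data were which of the 31 genes moved from library to library with Slc17a7, and which were present at a steady level in striatal tissue.

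Cortical projection neurons release glutamate and arise in the pallium, the roof of the embryonic forebrain. They load synaptic vesicles with the transporter VGLUT1, encoded by Slc17a7, and their identity is set by transcription factors such as Neurod2, Neurod6, Tbr1 and Emx1. The spiny projection neurons (SPNs) that make up most of the striatum release GABA and arise in the subpallium, so striatal tissue holds VGLUT1 protein mainly in the terminals of cortical axons while the mRNA stays in the cortical cell bodies. Many genes used to tell cortical layers apart are transcribed in other forebrain neurons as well.

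Counts assigned to genes were 8478403 to 11849134 per library, and a level of 3 counts corresponded to 0.239 to 0.375 CPM (counts relative to library size after scaling with TMM, a correction for differences in library composition). All intervals given are exact 95% intervals and cover counting error only. The 13 SPN markers, among them Drd1, Penk and Pde10a, summed to 7666 to 9381 CPM, and 12 of them differed by under 2-fold between the highest and the lowest library. The 7 pallial transcription factors among the 31 genes summed to 11.7 and 32.9 CPM in dorsal striatum and 56.6 and 81.1 CPM in accumbens. Of the 31, 29 passed the low-count filter. In dorsal striatum Neurod1 had 10 and 11 counts, against 3 and 2 in accumbens, and Emx1 had 2 and 1 against 2 and 6, and neither was tested. Bhlhe22 passed the filter through the accumbens libraries alone and Scnn1a through the dorsal striatum libraries alone.

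The members whose library profiles lay nearest to that of Slc17a7, by a measure given below, were Neurod6, Neurod2 and Cplx3. Their promoters and that of Slc17a7 are shown for this reason. Each runs from 250 bases before to 50 bases after the RefSeq start on GRCm38.p6, 5′ to 3′ on the gene's strand, with every E-box in capitals. The E-box, CANNTG on either strand, is the motif bound by basic helix-loop-helix factors, the class to which the Neurod proteins belong.
Slc17a7: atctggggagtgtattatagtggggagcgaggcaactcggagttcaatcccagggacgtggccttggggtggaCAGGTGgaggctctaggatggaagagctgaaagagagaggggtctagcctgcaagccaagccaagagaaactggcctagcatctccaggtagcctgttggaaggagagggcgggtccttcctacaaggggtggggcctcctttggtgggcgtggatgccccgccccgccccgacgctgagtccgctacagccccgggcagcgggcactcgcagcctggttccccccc
Neurod6: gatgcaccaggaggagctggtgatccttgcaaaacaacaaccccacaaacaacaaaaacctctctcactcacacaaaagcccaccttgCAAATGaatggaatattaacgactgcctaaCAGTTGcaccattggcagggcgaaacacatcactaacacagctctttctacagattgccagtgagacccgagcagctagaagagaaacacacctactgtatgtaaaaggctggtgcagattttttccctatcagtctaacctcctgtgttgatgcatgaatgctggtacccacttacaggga
Neurod2: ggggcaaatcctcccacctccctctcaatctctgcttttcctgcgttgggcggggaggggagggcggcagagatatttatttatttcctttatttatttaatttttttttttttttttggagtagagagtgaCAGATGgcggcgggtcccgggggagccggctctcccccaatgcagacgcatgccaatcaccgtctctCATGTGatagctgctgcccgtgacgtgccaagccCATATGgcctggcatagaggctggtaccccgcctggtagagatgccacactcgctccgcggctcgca
Cplx3: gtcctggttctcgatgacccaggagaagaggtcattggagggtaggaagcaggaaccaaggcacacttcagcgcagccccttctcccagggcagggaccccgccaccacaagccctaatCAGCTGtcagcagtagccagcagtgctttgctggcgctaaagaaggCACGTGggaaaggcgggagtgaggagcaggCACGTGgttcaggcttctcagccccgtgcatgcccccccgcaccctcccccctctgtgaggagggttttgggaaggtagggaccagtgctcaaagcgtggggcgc
These windows lie at chr7:45163671-45163970 (plus strand), chr6:55681214-55681513 (minus), chr11:98329596-98329895 (minus) and chr9:57606232-57606531 (minus). They hold 1, 2, 3 and 3 E-boxes in the same order. Of all 32851 RefSeq promoter windows of 300 bases, 72.3% hold at least 1 as well. The form CAGATG or CATCTG was found in the Neurod2 window and not in the other 3 windows, and 17.2% of all windows hold it.

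Slc17a7 (ENSMUSG00000070570.5, chromosome 7, 45163949 to 45176142, GRCm38) varied widely between libraries. It stood at 32.3 and 0.717 CPM in dorsal striatum replicates 1 and 2 and at 198 and 79.4 CPM in accumbens replicates 1 and 2. Both accumbens libraries were above both dorsal striatum libraries, and each region had one library well above the other. Dorsal striatum replicate 2 held 9 counts of this gene, an interval of 0.328 to 1.36 CPM, and the highest library stood 276-fold above it (interval 145 to 605). Replicates of 1 region thus differed by 45.0-fold in dorsal striatum and 2.49-fold in accumbens. In RNA from whole tissue, fewer cells of a type and less RNA per cell cannot be told apart.

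**Figure D1:**
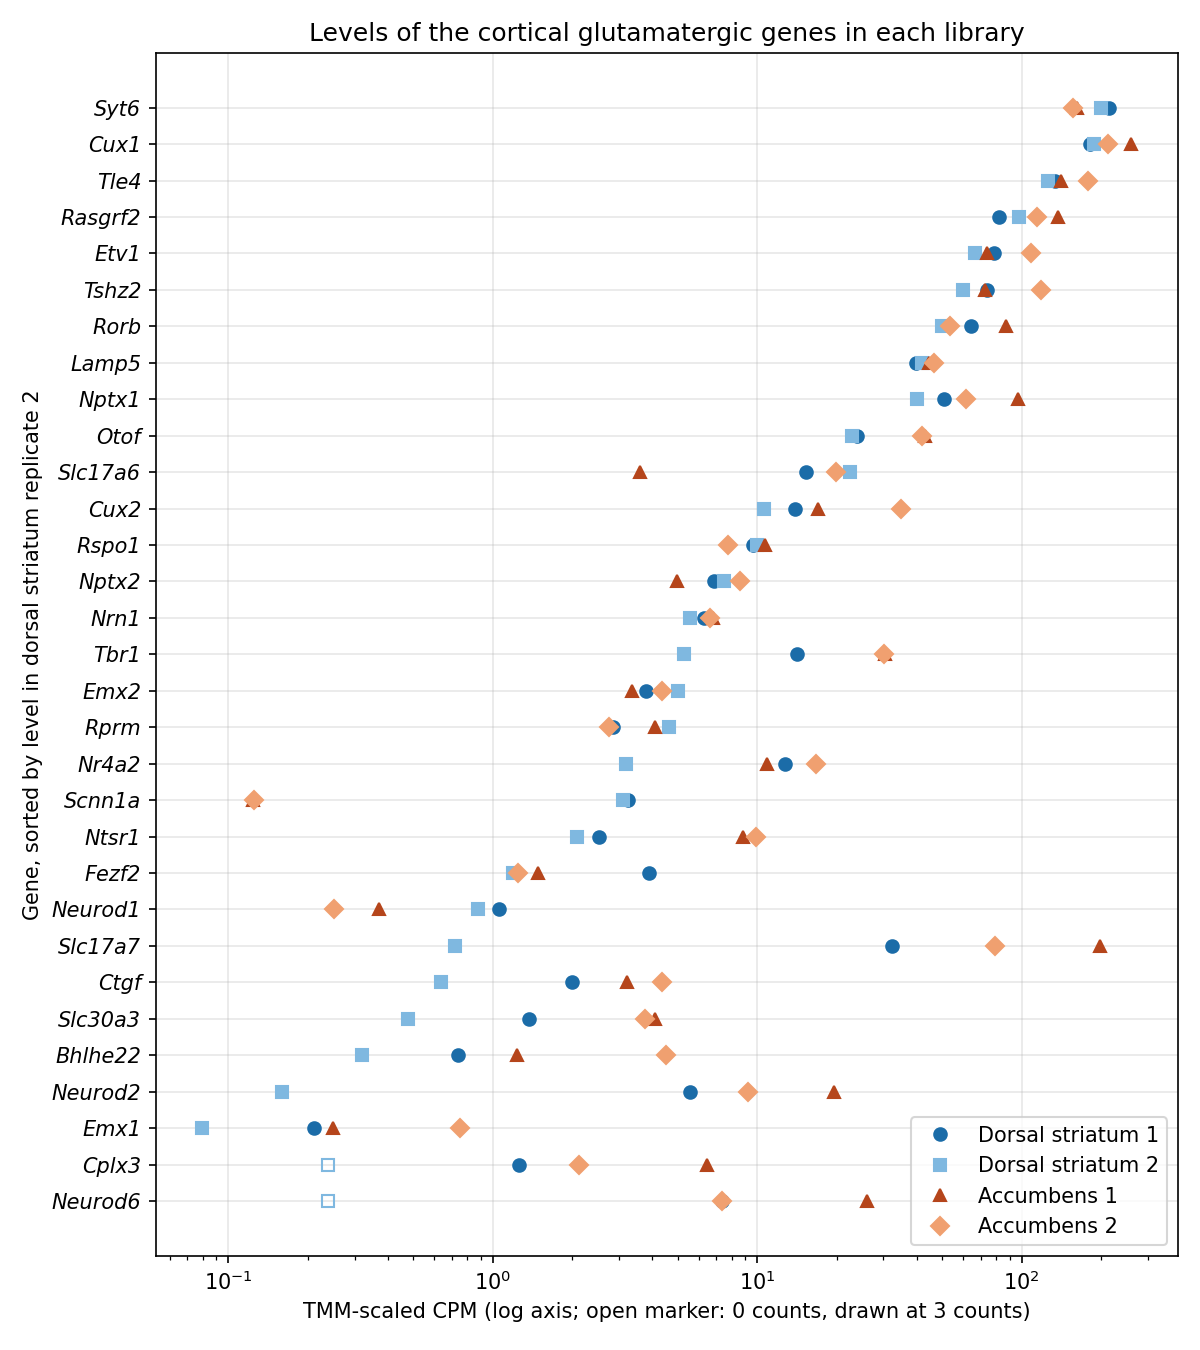
Level of each of the 31 genes (vertical axis, sorted by the level in dorsal striatum replicate 2) in each of the 4 libraries, as TMM-scaled CPM on a log axis. Open markers are libraries with 0 counts, drawn at the level of 3 counts. Genes at the top have their 4 markers close together, while Slc17a7, Neurod2, Neurod6 and Cplx3 near the bottom spread widely, with dorsal striatum replicate 2 lowest.

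The other vesicle-loading genes did not share one pattern. Slc17a6 encodes VGLUT2, the vesicular glutamate transporter of thalamus, hypothalamus and other subcortical nuclei (ENSMUSG00000030500.6, chromosome 7, 51622006 to 51671119). It stood at 15.2 and 22.4 CPM in dorsal striatum and at 3.59 and 19.9 CPM in accumbens. Its lowest library was accumbens replicate 1, where Slc17a7 was highest, and its highest was dorsal striatum replicate 2, where Slc17a7 was lowest. Per kilobase of the longest coding transcript, a scale on which genes can be compared, Slc17a7 was at 67.9 and Slc17a6 at 0.868 CPM per kilobase in accumbens replicate 1. In dorsal striatum replicate 2 the order was turned, at 0.246 for Slc17a7 and 5.41 for Slc17a6. The other libraries lay between, at 27.2 and 4.81 in accumbens replicate 2 and 11.1 and 3.68 in dorsal striatum replicate 1. Of a list of hypothalamus and pallidum markers, Lhx6 and Lhx8 were also lowest in accumbens replicate 1, at 46.2 and 11.02 CPM. Their ranges in the other libraries were 48.9 to 85.5 and 14.0 to 21.1 CPM. Unlike Slc17a6, both were highest in accumbens replicate 2, and Lhx6 is a marker of GABA interneurons as well. The hypothalamus and pallidum list summed to 62.9 CPM in accumbens replicate 1, 69.6 and 90.9 CPM in dorsal striatum and 113.5 CPM in accumbens replicate 2. Of its peptide genes Hcrt had 0 counts in every library and Pmch, Oxt and Avp had at most 12, and the factor gene Sim1 had at most 3. The thalamus list summed to 229.5 and 209 CPM in dorsal striatum and 160.4 and 161 CPM in accumbens. Of its genes Prkcd alone, at 16.2 and 24.4 against 6.32 and 8.001 CPM, had the same highest and lowest libraries as Slc17a6. Tcf7l2 and Ntng1 were highest in accumbens replicate 2, at 40.25 and 40.75 CPM. Rora and Lef1 were highest in dorsal striatum replicate 1, at 148 and 2.00 CPM, and Gbx2 had at most 1 count. The part of thalamus, hypothalamus or pallidum cells in the Slc17a6 level was not tested. Slc30a3, which encodes the transporter that loads zinc into glutamatergic vesicles, stood at 1.37 and 0.478 CPM in dorsal striatum and 4.09 and 3.75 CPM in accumbens, on 6 to 33 counts. It ranked the libraries as Slc17a7 did, while its accumbens libraries were 1.09-fold apart.

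Among pallial transcription factors, Neurod2 (chromosome 11, 98325415 to 98329648) and Neurod6 (chromosome 6, 55677822 to 55681263) followed Slc17a7 closely. Neurod2 was at 5.57 and 0.159 CPM in dorsal striatum and 19.6 and 9.25 CPM in accumbens. Neurod6 was at 7.36 and 0 CPM in dorsal striatum and 25.9 and 7.38 CPM in accumbens. Both had their highest level in accumbens replicate 1 and nearly none in dorsal striatum replicate 2, where they had 2 and 0 counts. The highest Neurod6 level was 108 times that of 3 counts in that library (interval 87.3 upward, from the 0 counts). For Neurod2 the ratio was 123 (interval 33.4 to 1023). Neurod6 in accumbens replicate 2 and dorsal striatum replicate 1 differed by less than counting error, so its rank between those libraries is not resolved.

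Tbr1, a T-box factor of early-born cortical neurons (chromosome 2, 61802930 to 61814114), was at 14.2 and 5.26 CPM in dorsal striatum and 30.5 and 30.1 CPM in accumbens. The regions did not overlap and the accumbens libraries were level, unlike those of Slc17a7. Dorsal striatum replicate 2 kept 17.3% of the Tbr1 level of accumbens replicate 1, against 0.362% for Slc17a7 and 0.814% for Neurod2. Bhlhe22, a basic helix-loop-helix repressor, was at 0.736 and 0.319 CPM in dorsal striatum and 1.24 and 4.50 CPM in accumbens, with accumbens replicate 2 highest. The homeobox gene Emx2 was even, at 3.78 and 5.02 CPM against 3.35 and 4.38 CPM. Its paralogue Emx1, which marks nearly all cortical projection neurons, was at or close to the 3-count level in the libraries, with 6 counts in accumbens replicate 2 as its highest.

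Genes of layer 6b and the subplate, the deepest cortical cells, split as well. Cplx3, a complexin that acts on vesicle fusion, was at 1.26 and 0 CPM in dorsal striatum and 6.44 and 2.13 CPM in accumbens. As a share of Slc17a7 it was steady wherever that gene was plentiful, at 3.91% in dorsal striatum replicate 1, 3.25% in accumbens replicate 1 and 2.68% in accumbens replicate 2. Its highest level was 26.9 times that of 3 counts in dorsal striatum replicate 2 (interval 21.1 upward, from the 0 counts). Ctgf, a secreted matricellular protein gene, was at 2.00 and 0.638 CPM against 3.22 and 4.38 CPM. Nr4a2, an orphan nuclear receptor also induced by activity, was at 12.7 and 3.19 CPM against 10.9 and 16.6 CPM. For both genes dorsal striatum replicate 2 was lowest, as for Slc17a7, but accumbens replicate 2 was highest.

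**Figure D2:**
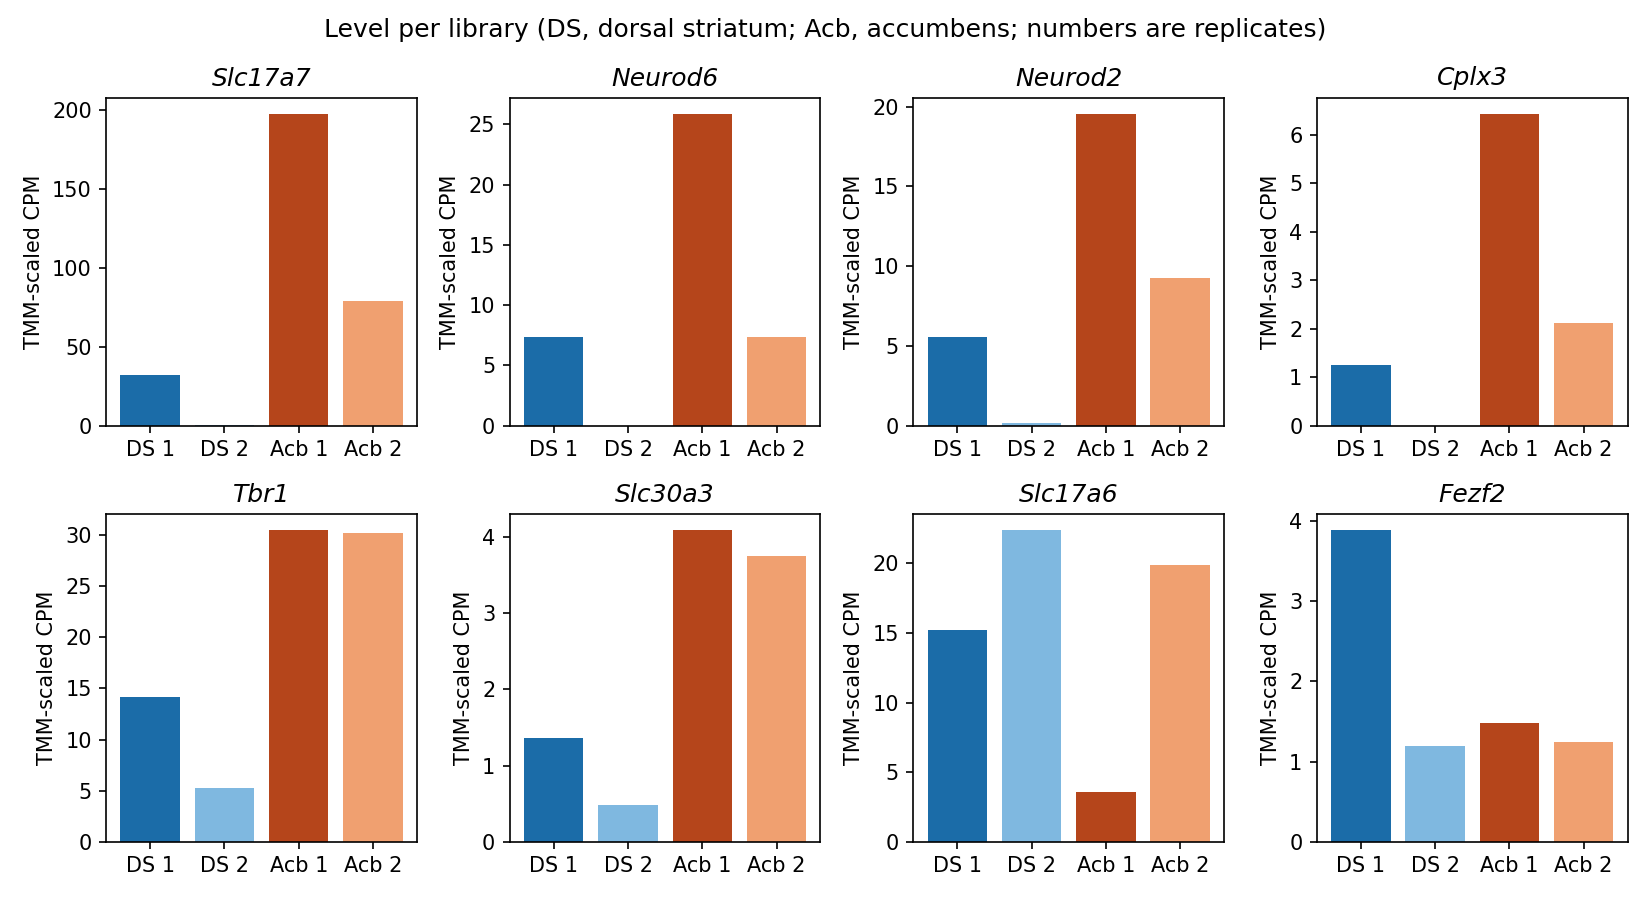
TMM-scaled CPM (vertical axes, from 0) of 8 genes in each library (horizontal axes: dorsal striatum replicates 1 and 2, accumbens replicates 1 and 2), 1 bar per library. Slc17a7, Neurod6, Neurod2 and Cplx3 share the high bar of accumbens replicate 1, Tbr1 and Slc30a3 have level accumbens bars, Slc17a6 is lowest where Slc17a7 is highest, and Fezf2 is highest in dorsal striatum replicate 1.

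The likeness to Slc17a7 was measured as the root mean square difference between log2 CPM profiles over the 4 libraries, each centred on its own mean. By this measure Neurod6 and Neurod2 were nearest of 14492 other tested genes (ranks 1 and 2, differences 0.54 and 0.77), and Cplx3 was at rank 4 (1.18). Slc30a3 and Tbr1 came at ranks 28 and 34, Ctgf at 62, Nr4a2 at 103, Ntsr1 at 121 and Bhlhe22 at 160. At the far end Slc17a6 was at rank 14117 and Scnn1a at 14475. A member was said to follow Slc17a7 where it ranked the 4 libraries in the same order and its highest level was at least 4 times its lowest. That held for 5 of the 28 other tested members, namely Neurod2, Neurod6, Tbr1, Slc30a3 and Cplx3, and for 0.704% of all tested genes. For Tbr1 (246 and 241 counts) and Slc30a3 (33 and 30 counts) the order of the accumbens libraries lay within counting error, as did 1 rank of Neurod6, so their place in this group is not resolved. The order alone was shared by 8 of the 28, with Nrn1, Otof and Nptx1 added, and by 5.87% of all tested genes. Just inside the fold limit lay Tbr1 at 5.79 and just outside it Nptx1 at 2.41. Without dorsal striatum replicate 2, the library with the lowest Slc17a7, only Cplx3 met both conditions, and without accumbens replicate 1 there were 9 members that did. Without dorsal striatum replicate 1 the number was 5 and without accumbens replicate 2 it was 7. Fewer libraries give fewer orders to match, and the share of all genes was not computed for these settings. These numbers therefore cannot be set beside 0.704%.

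The 10 other genes with profiles most like that of Slc17a7 were Cck, Robo4, Crhbp, Nmbr, Nov, Sgsh, Cd93, Itga10, Glt8d2 and Itgb2. Cck, the cholecystokinin gene expressed by many cortical neurons, was nearest (difference 1.32) at 11.9 and 3.83 CPM in dorsal striatum and 143 and 56.5 CPM in accumbens. As a share of Slc17a7, Cck was at 72.3% and 71.2% in the accumbens libraries and at 36.8% in dorsal striatum replicate 1. In dorsal striatum replicate 2 Cck lay above Slc17a7, at 3.83 against 0.717 CPM, on 48 and 9 counts. Crhbp encodes a binding protein for the peptide CRH, and Nmbr the receptor for neuromedin B. Robo4 and Cd93 are genes of endothelial cells, and Robo4 stood at 1.16 and 0.239 CPM against 11.8 and 3.50 CPM. Of the endothelial markers Flt1 showed a like order at its ends (9.67 and 2.87 against 30.0 and 7.13 CPM), while Pecam1 did not (1.89 and 1.75 against 0.619 and 1.63 CPM) and Cldn5 had 8 and 0 against 6 and 0 counts. That list summed to 12.4 and 4.62 CPM in dorsal striatum and 31.3 and 8.75 CPM in accumbens, and its part in the shared profile was not tested.

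One deep-layer gene set dorsal striatum replicate 1 apart from the accumbens libraries. Fezf2, the zinc finger gene of subcerebral projection neurons in layer 5, was at 3.89 and 1.20 CPM in dorsal striatum and 1.49 and 1.25 CPM in accumbens. It was highest in dorsal striatum replicate 1, with 37 counts against 15, 12 and 10 in the others. Its share of the Slc17a7 level was 12.05% there, against 0.751% and 1.57% in accumbens replicates 1 and 2. In dorsal striatum replicate 2 Fezf2 lay above Slc17a7, at 1.20 against 0.717 CPM, on 15 and 9 counts. Of 6 astrocyte genes Gfap was also highest in dorsal striatum replicate 1, at 62.1 CPM against 14.8 to 31.1 CPM in the others. Aqp4 was highest there as well, at 64.6 CPM, while Gja1 was lowest there, at 27.1 CPM. Slc1a3, Aldh1l1 and Sox9 were highest in accumbens replicate 1. The astrocyte list summed to 369 and 250 CPM in dorsal striatum and 357 and 335 CPM in accumbens. The relation of these genes to Fezf2 was not tested.

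A larger group of the 31 genes was present at a steady level, also in the library with almost no Slc17a7. Of the 29 tested genes 14 differed by under 2-fold between the highest and the lowest library, as did 61.1% of all tested genes, a larger share. Just inside this limit lay Tshz2 at 1.97 and just outside it Nptx1 at 2.41. In dorsal striatum replicate 2 the most abundant of them per kilobase of coding transcript were Syt6 at 45.2, Tle4 at 27.7, Lamp5 at 21.4 and Rasgrf2 at 16.8 CPM per kilobase, where Slc17a7 was at 0.246. These are levels in whole striatal tissue and do not name the cells that hold the RNA.

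Of the 8 upper-layer markers 6 were of this even kind, beside 61.1% of all tested genes. Lamp5, a membrane protein gene also found in GABA neurons, was at 39.8 and 41.8 CPM in dorsal striatum and 44.7 and 46.4 CPM in accumbens. Its highest level was 1.16 times its lowest, the narrowest spread of the 29. The Ras exchange factor gene Rasgrf2 was at 82.3 and 97.6 against 137 and 114 CPM, and the homeobox gene Cux1 at 182 and 187 against 259 and 211 CPM. For both, the accumbens libraries lay above the dorsal striatum libraries by a margin of under 2-fold. Rorb, an orphan nuclear receptor gene of layer 4, was at 64.4 and 49.97 CPM against 87.3 and 53.6 CPM, with overlapping regions. Rspo1, which encodes a potentiator of Wnt signalling, was at 9.67 and 9.96 CPM against 10.7 and 7.75 CPM. Otof, which encodes the calcium sensor otoferlin, was at 23.8 and 22.7 CPM in dorsal striatum and 43.0 and 42.0 CPM in accumbens. Its replicates were within 1.05-fold of each other in each region, which the replicates of Slc17a7 were not. Cux2 was less even, at 13.9 and 10.6 against 17.0 and 34.9 CPM, with accumbens replicate 2 alone well above the rest.

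Scnn1a, the alpha subunit of the epithelial sodium channel and a layer 4 marker (chromosome 6, 125320659 to 125344943), ran the other way. It was at 3.26 and 3.11 CPM in dorsal striatum and at 0.124 and 0.125 CPM in accumbens, from 31 and 39 counts against 1 and 1. Summed over libraries this was 70 against 2 counts, a ratio of 25.5 with a counting interval of 6.80 to 215. Scnn1a passed the low-count filter through the dorsal striatum libraries alone, where it was high, so its difference is given as description. The dorsal striatum libraries were level although their Slc17a7 differed by 45.0-fold.

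Deep-layer markers ranged from abundant to scarce. Syt6, a synaptotagmin gene of layer 6 (chromosome 3, 103575231 to 103645569), was at 213 and 199 CPM in dorsal striatum and 162 and 156 CPM in accumbens, with no overlap and with dorsal striatum higher. Tle4, a transcriptional corepressor gene, was at 134 and 126 against 141 and 177 CPM. The ETS factor gene Etv1 was at 78.5 and 66.6 against 73.6 and 109 CPM, and the zinc finger gene Tshz2 at 74.0 and 60.2 against 72.7 and 118 CPM. In Tle4, Etv1 and Tshz2 accumbens replicate 2 was the highest library, the one with the lower Slc17a7 of its region. Rprm, a cell cycle inhibitor gene, was low and even at 2.84 and 4.62 against 4.09 and 2.75 CPM. Ntsr1, a neurotensin receptor gene that marks corticothalamic neurons of layer 6, was at 2.52 and 2.07 CPM in dorsal striatum and 8.80 and 9.88 CPM in accumbens. Both pairs of replicates were close, a split by region with level accumbens libraries, as in Tbr1.

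The activity-linked secreted proteins differed among themselves. Nptx1, a neuronal pentraxin gene that helps to cluster AMPA receptors, was at 50.9 and 40.3 CPM in dorsal striatum and 97.0 and 61.4 CPM in accumbens, in the library order of Slc17a7 with a far narrower spread. Dorsal striatum replicate 2 kept 41.6% of the Nptx1 level of accumbens replicate 1. Nptx2 was at 6.83 and 7.49 against 4.96 and 8.63 CPM, and the neuritin gene Nrn1 at 6.30 and 5.58 against 6.81 and 6.63 CPM. Both were even over the libraries.

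**Figure D3:**
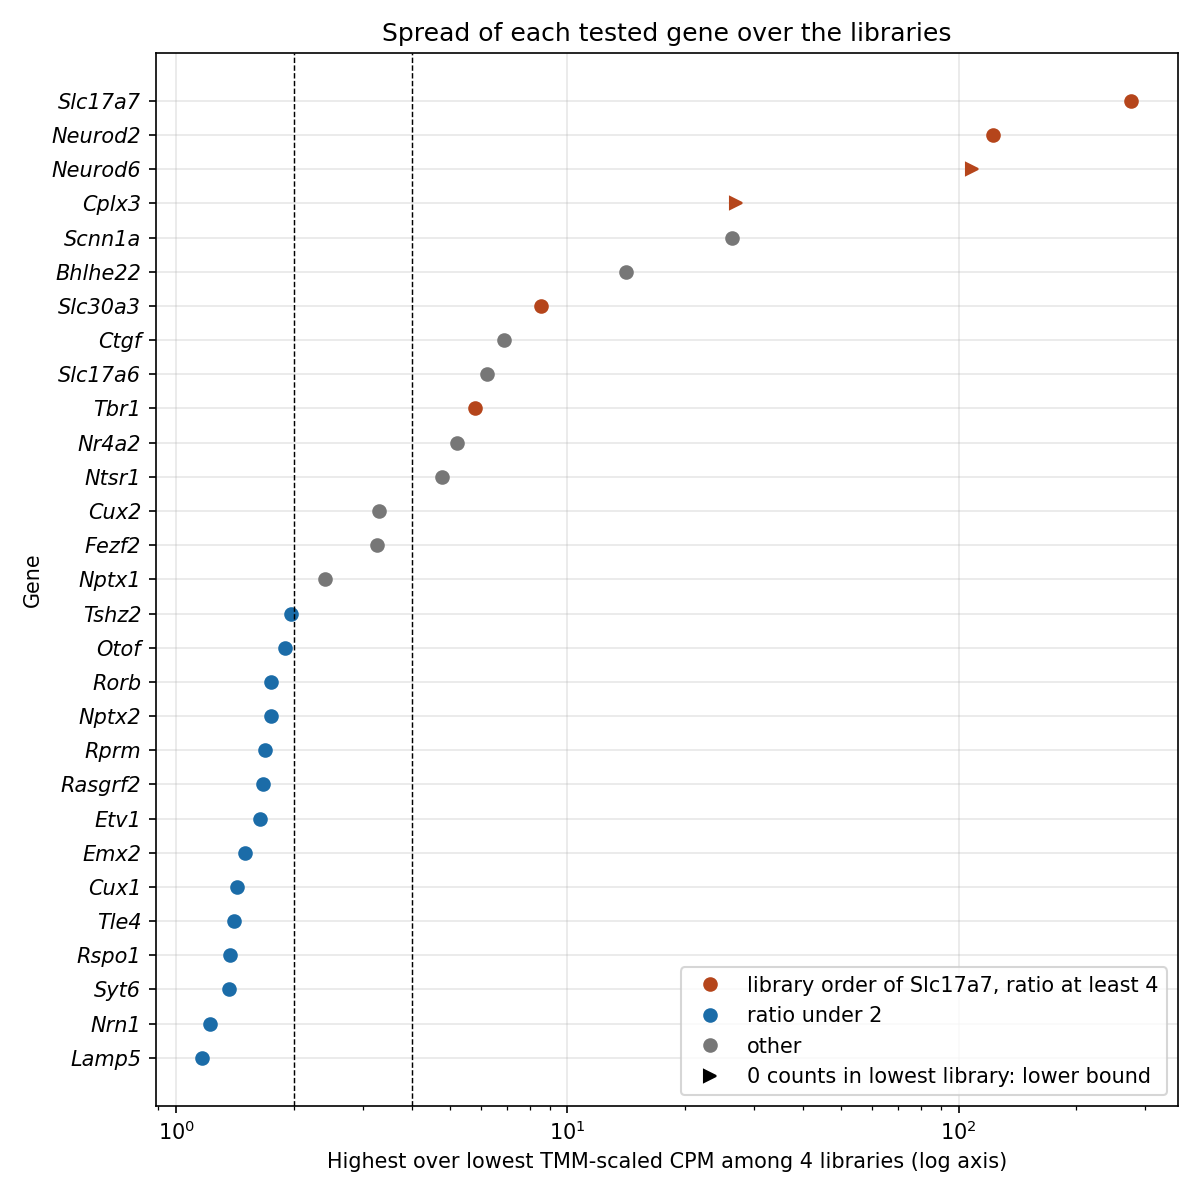
Highest over lowest TMM-scaled CPM among the 4 libraries (horizontal log axis) for each of the 29 tested genes (vertical axis), with dashed lines at 2 and 4. Triangles are lower bounds for genes with 0 counts in a library. Slc17a7 and the 5 genes that followed it lie to the right, from 5.79 for Tbr1 to 276, and 14 genes lie under 2.

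The comparison of regions asked which of these genes differ between accumbens and dorsal striatum. Of the 29 tested members none passed the threshold (edgeR quasi-likelihood test, Benjamini-Hochberg adjusted p under 0.05 over all genes), while 1.28% of all 14493 tested genes did (0.994% with the higher level in accumbens, 0.29% with the lower). At an unadjusted p under 0.05 there were 13 members, against 19.2% of all tested genes. These 13 included Bhlhe22 and Scnn1a, which passed the low-count filter only through the region where they were high. DESeq2 called 11.2% of the genes to which it gave an adjusted p. Among them were 3 members, Tbr1 (DESeq2 adjusted p = 0.00423), Otof (0.0217) and Nptx1 (0.0289), all higher in accumbens, while 15 of the 29 members had no adjusted p there. The lowest edgeR adjusted p-value was that of Scnn1a (log2 fold change −4.54, SE 0.98, adjusted p = 0.0676). Scnn1a passed the low-count filter through the dorsal striatum libraries alone, so this value gives no separate support. Next by edgeR were Otof (log2 fold change 0.87, SE 0.20, adjusted p = 0.0802), Ntsr1 (2.02, SE 0.47, 0.0807) and Tbr1 (1.65, SE 0.43, 0.101). Slc17a7 averaged 16.5 ± 22.3 CPM in dorsal striatum against 139 ± 83.8 CPM (SD, n = 2 each), with the largest positive log2 fold change of the set, 3.12 (SE 1.04) and an edgeR adjusted p = 0.162. Neurod2 at 2.37 (SE 1.03), Neurod6 at 2.22 (SE 1.25) and Cplx3 at 2.81 (SE 1.32) had adjusted p-values of 0.258, 0.378 and 0.294 by edgeR.

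Fold changes were positive for 21 of the 29 members, with a median of 0.48 beside 0.02 over all tested genes. Both accumbens libraries lay above both dorsal striatum libraries for 17 members, the reverse held for Scnn1a and Syt6, and 10 overlapped. The 17 included Bhlhe22, which, like Scnn1a, passed the low-count filter only through the region where it was high. Over all tested genes 25.6% had both accumbens libraries higher and 25.6% both dorsal striatum libraries higher. By role, the median log2 fold change was 2.22 for 5 pallial factors, 2.10 for 3 vesicle-loading genes and 1.54 for 3 genes of layer 6b. It was 0.33 for 8 upper-layer genes, 0.29 for 7 deep-layer genes and 0.18 for 3 activity-linked genes. These medians describe the genes that passed the filter and depend on it. Of the pallial factors Bhlhe22 (2.44) passed through the accumbens libraries alone. The filter left out Neurod1, higher in both dorsal striatum libraries, and Emx1, higher in both accumbens libraries. Of the upper-layer genes Scnn1a passed through the dorsal striatum libraries alone.

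Calls depended on single libraries, with the lone library of a region taken to vary like the other pair. Slc17a7 had log2 fold changes of 2.10 to 7.55 with a library left out. Leaving out a dorsal striatum library also removed the 45.0-fold difference between the Slc17a7 replicates from the spread. Passing in these fits is therefore no separate support. With all 4 libraries the edgeR adjusted p of Slc17a7 was 0.162. Without dorsal striatum replicate 1, 4 members passed (Slc17a7, Neurod2, Neurod6 and Tbr1), beside 0.71% of all genes tested in that fit. Without dorsal striatum replicate 2 Slc17a7 was the 1 that did, beside 1.09% of all genes. Without accumbens replicate 1, 18.2% of all genes and 10 members passed, with Tbr1, Cux2, Bhlhe22, Tle4, Etv1, Otof, Tshz2, Ntsr1 and Slc17a7 higher in accumbens and Scnn1a lower. Without accumbens replicate 2, 28.9% of all genes and 14 members passed, with Slc17a7, Neurod2, Neurod6, Tbr1, Slc30a3, Rorb, Cux1, Rasgrf2, Cplx3, Otof, Nptx1 and Ntsr1 higher and Slc17a6 and Scnn1a lower. The log2 fold change of Slc17a6 was −2.40 in that fit and 0.07 without accumbens replicate 1.

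**Figure D4:**
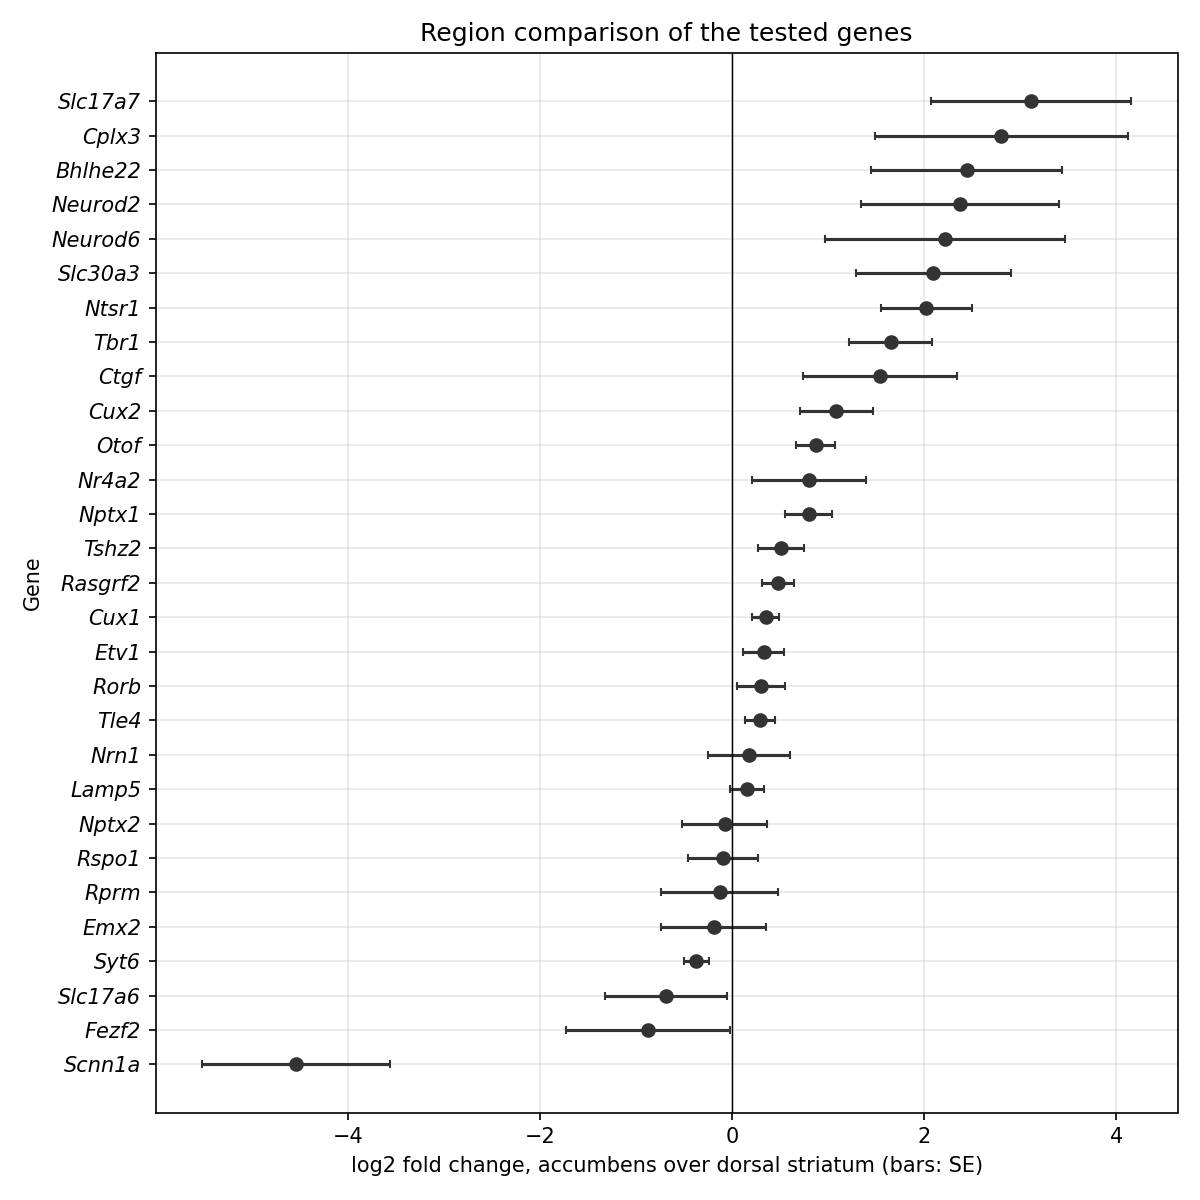
Log2 fold change, accumbens over dorsal striatum (horizontal axis), with its SE as bars, for each of the 29 tested genes (vertical axis) from the edgeR fit to all 4 libraries. Slc17a7 lies at 3.12 and Scnn1a at −4.54, and none of the 29 passed the adjusted threshold.

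Other genes of pallial glutamatergic neurons were taken from a further list of 24, of which 19 were tested. Of these Cck (log2 fold change 3.70, edgeR adjusted p = 0.0348) and the visinin-like calcium sensor gene Vsnl1 (0.86, adjusted p = 0.0431) were higher in accumbens and 0 were lower. Vsnl1 was at 407 and 517 CPM in dorsal striatum and 783 and 901 CPM in accumbens, with no overlap and with accumbens replicate 2 highest. The median over the 19 was 0.24 and 14 were positive. Even over the libraries were 10, beside 61.1% of all tested genes. Cck and Nov had the library order of Slc17a7 with a spread of at least 4, beside 0.704% of all tested genes. Grm2, a presynaptic glutamate receptor gene, was at 1.89 and 1.91 against 8.30 and 7.13 CPM (adjusted p = 0.0999), a split by region with level replicates like that of Otof and Ntsr1.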

How the data were processed

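Values in the 4 deposited files are raw read counts by gene symbol, made with STAR 2.0.0e and HTSeq on mm10, per the submitters' processing notes. Which annotation and strand setting were used is not given in the sources used here. Reads of overlapping or antisense genes may therefore be mixed. Rows for reads in no feature (27.5% to 35.4% of all counted rows), ambiguous reads (6.06% to 9.46%) and reads with several alignments (6.98% to 10.2%) stayed out of library sizes and tests. Members were matched by symbol, Ctgf through its current name in RefSeq. Coordinates and coding transcript lengths came from GENCODE M21 (GRCm38), and promoters from RefSeq (24 of the 31 genes had an entry).

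Counts were filtered with filterByExpr, scaled with TMM and tested two-sided with edgeR 4.0.16 (R 4.3.3, glmQLFit and glmQLFTest, region as the only term). SE is the log2 fold change over the root of F. The filter passed genes at 1.14 CPM or more in at least 2 libraries. Likeness used log2 CPM with a prior count of 2. The most alike genes had a mean log2 CPM of at least 1, and names starting with Gm and digits or LOC, ending in Rik or of GenBank type were passed over. Alternatives covered scaling, filter, DESeq2 1.42.0, a replicate block and leaving out each library. The procedure was tested on simulated data whose spread followed the trend over expression level in these libraries, with none particular to a gene. It recovered 31.6% of 2-fold and 72.9% of 4-fold changes, with 3 false calls. These rates do not cover genes whose replicates differ by more than that trend. A gene short of the threshold may therefore still differ between regions. Values of 1 gene of the lists are not reported here. Members, lists and rules were chosen with earlier results of these data known.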

Additional observations from a re-analysis of the deposited data

How the results depend on the processing

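The number of genes past the threshold over the whole table was 186. It was 1203 with no low-count filter, 933 with DESeq2, 843 with the replicate block and 109 to 4464 with a library left out. For the 29 tested members, 0 of which passed, these numbers were 10, 3, 8 and 1 to 14. The members called with no filter were Slc17a7, Neurod2, Neurod6, Tbr1, Cux2, Cplx3, Otof, Nptx1, Ntsr1 and Scnn1a, and the cause was not tested. The 843 genes of the replicate block were out of the same 14493 tested genes, and the percent of genes called with no filter was not computed. With the replicate block Slc17a7 (log2 fold change 3.91, edgeR adjusted p = 4.5e-11), Neurod2, Neurod6, Tbr1, Otof, Nptx1 and Ntsr1 passed as higher in accumbens and Scnn1a as lower. The replicate numbers were not shown to pair the samples: the deviations of the first replicates correlated at 0.033 over genes. DESeq2 size factors and library size alone left 0 members past the threshold. The 5 members that followed Slc17a7 were the same with DESeq2 size factors, 4 with library size alone (without Neurod6) and 6 at a 2-fold limit (with Nptx1). With a library left out they were 1 to 9. The share of all genes was not computed in these settings. With library size alone the median over all genes was −0.15 in place of 0.02 (log2), and Lamp5 turned from 0.16 to −0.014. The direction of the calls over the whole table turned too. With library size alone 72 genes passed as higher and 172 as lower in accumbens, against 144 and 42 with TMM. Leaving out a library turned the direction of Slc17a6 (−2.40 to 0.068), Emx2 (−0.41 to 0.025), Rorb (−0.092 to 0.61), Fezf2 (−1.50 to 0.17), Rprm (−0.46 to 0.26), Nptx2 (−0.54 to 0.26) and Rspo1 (−0.34 to 0.11), none of which passed with all 4 libraries. Counts of 0 to 9 in dorsal striatum replicate 2 limit what can be said of Neurod6, Cplx3, Neurod2, Emx1, Bhlhe22, Slc30a3, Ctgf and Slc17a7 there.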

Other observations

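GABA interneuron markers differed by region and between single libraries. The somatostatin gene Sst was at 53.5 and 58.4 CPM in dorsal striatum and 193.5 and 143 CPM in accumbens (edgeR adjusted p = 0.0233), and the neuropeptide Y gene Npy at 7.04 and 7.01 against 23.0 and 18.9 CPM (adjusted p = 0.0552). Of 9 tested genes of that list, Sst and Cck passed, both with the higher level in accumbens, and the median was 1.19 (log2). Htr3a, the serotonin-gated channel gene of a class of cortical interneuron, had 8 and 15 counts in dorsal striatum, 1 in accumbens replicate 1 and 85 in accumbens replicate 2. Vip, a peptide gene of the same class, had 3 and 3 counts in dorsal striatum, 0 in accumbens replicate 1 and 21 in accumbens replicate 2. Lhx6 of the same list was also highest in accumbens replicate 2, at 85.5 CPM. Id2 and Ndnf were highest in accumbens replicate 1, at 15.2 and 9.04 CPM, and Calb2 in dorsal striatum replicate 2, at 10.8 CPM. Accumbens replicate 2 was also the highest library for Cux2 (34.9 CPM) and Bhlhe22 (4.50 CPM). Pvalb, the parvalbumin gene of fast-spiking interneurons, was highest in dorsal striatum replicate 1 with 80 counts, against 11 to 37 in the others. Eomes, a T-box gene of olfactory bulb projection neurons and of progenitors, had 8 counts in dorsal striatum replicate 2 and 0 in every other library.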
